A study of Mus musculus with 15 samples.

Results

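Type I interferon response genes are the genes that cells switch on when interferon alpha or beta reaches them. A list of 40 such genes was followed by symbol through the microglial RNA of mouse retinas, and 40 of 40 were found among the 35519 genes to which reads could be assigned. Of these, 29 had enough reads to be tested, among 6521 genes tested in all. The study compared retinal microglia of wild-type and Apoe-/- C57BL/6 mice, 12 weeks old, after a sham or a microbead injection. Microbeads clog the outflow of the eye, and the pressure that builds up serves as a model of glaucoma. Each library came from 1 retina: 4 sham and 3 microbead retinas of wild type, and 4 of each kind of Apoe-/-. Apoe-/- animals lack apolipoprotein E, a lipid carrier, in every cell and not in microglia alone. Cells were sorted as CD11b+, Ly6c- and Fcrls+, a gate that keeps resident microglia and leaves out recruited myeloid cells, so a cell that has lost Fcrls is not measured. No label says that the retinas of a group came from separate mice, so the p-values measure only the spread between these libraries, part of which may be technical.

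Interferon alpha and beta bind a receptor made of Ifnar1 and Ifnar2, whose kinases activate signal carriers such as Stat2. With Irf9 it takes part in a complex that binds a short DNA element in front of its target genes. The targets include sensors of viral RNA and DNA, enzymes that stop translation or degrade RNA, membrane proteins that block virus entry or release, and regulators that amplify or end the response. Resting microglia keep a low level of many of these genes, and a set of microglia with a high level has been described in ageing and in neurodegeneration.

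The element was looked for in the RefSeq promoter windows of the members (build GRCm38.p6), which run from 250 bases before to 50 bases after each annotated start. Its core was searched on both strands as GAAA, then any 2 bases (NN), then GAAA. Windows were matched for 30 of the 40 members, and 17 of the 30 (56.7%) held at least 1 match. Among all 27025 gene symbols with a window 3.99% held one, and among all 32851 windows 3.44%. Repeats of the core overlapped in several members, and 8 members held 2 or more matches. A match is only a run of letters and was not tested as a binding site. The 160 bases before the start are shown for 4 members whose values are described below, 5′ to 3′ on the strand of the gene, with every match to the core in capitals. They differ in the number and place of the matches. They lie at chr4:156200819-156200978 (Isg15, minus strand), chr19:34583369-34583528 (Ifit3, plus strand), chr8:71537473-71537632 (Bst2, minus strand) and chr1:173741810-173741969 (Ifi207, minus strand).
Isg15: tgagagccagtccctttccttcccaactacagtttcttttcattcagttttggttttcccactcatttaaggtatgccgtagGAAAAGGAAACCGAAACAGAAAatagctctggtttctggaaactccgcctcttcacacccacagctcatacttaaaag
Ifit3: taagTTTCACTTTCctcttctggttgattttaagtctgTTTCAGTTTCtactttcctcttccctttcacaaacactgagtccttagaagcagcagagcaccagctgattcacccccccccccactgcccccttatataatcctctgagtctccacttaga
Bst2: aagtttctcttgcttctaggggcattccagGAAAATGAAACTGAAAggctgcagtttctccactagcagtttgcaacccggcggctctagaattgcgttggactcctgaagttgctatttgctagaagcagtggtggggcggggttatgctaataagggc
Ifi207: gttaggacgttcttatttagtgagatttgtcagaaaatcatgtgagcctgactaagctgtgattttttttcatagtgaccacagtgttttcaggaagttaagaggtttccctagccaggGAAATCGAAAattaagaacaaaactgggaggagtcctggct

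Isg15 has 3 overlapping copies on the strand of the gene, the first of which begins 78 bases before the start. Bst2 has 2 overlapping copies from 130 bases before it. Ifit3 has 2 separate copies on the other strand, whose first bases lie 156 and 122 bases before the start. Ifi207 has 1 copy, 41 bases before the start. Ddx58, Eif2ak2, Ifih1, Ifitm3 and 1 of the starts of Trim30a hold their matches just after the annotated start.

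**Figure D1:**
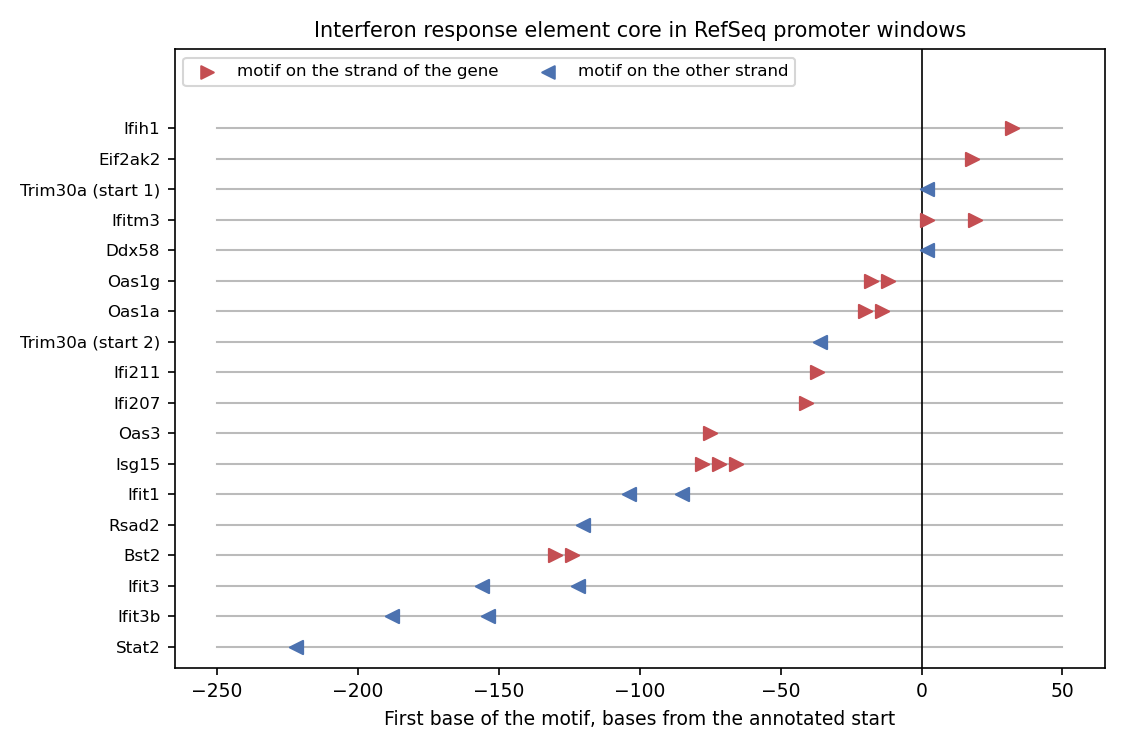
Position of the core (GAAA, any 2 bases, GAAA) in the RefSeq promoter windows of the 17 members that hold it, in bases from the annotated start (horizontal axis, grey lines span the window; Trim30a has 2 starts). Triangles point right for a match on the strand of the gene and left for the other strand; Isg15 has 3 matches in a row.

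The libraries were shallow and uneven, and most members lay close to background. They held 458111 to 714670 reads assigned to genes, and 12 models of a centromere repeat, the major satellite, took 40.8 to 74.4% of them. The smallest library size after TMM scaling was 235400 (Apoe-/- sham library 2) and the largest 1045710 (library 2 of wild-type microbead). In these 0 reads allowed a level of up to 12.7 and 2.87 CPM (3 reads taken as the limit, counting error only). The targeted gene matched the genotype labels, with 667 to 15125 Apoe reads in each wild-type library and 0 to 6 in each Apoe-/- library. All 12 microglial markers were well above background. Of 13 monocyte and macrophage, 8 neutrophil, 14 lymphocyte and plasmacytoid and 8 endothelial and pericyte markers, none had more than 3 times the mean reads of the 1497 silent receptor genes, a set of protein-coding olfactory, vomeronasal and taste receptors not known to be used by microglia. By the same measure 25 of the 40 members, and 14 of the 29 tested, lay under 3 times that background (3338 of the 6521 tested genes did).

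Summed over all 40 members, the level in Apoe-/- sham libraries was low and even, and the wild-type sham libraries spread widely around a higher mean. Much of the low level was at background. From 11 to 36 of the 40 members had no more reads than the mean silent receptor gene in an Apoe-/- sham library, and from 2 to 26 in a wild-type one. In libraries 1 to 4 of a group, which is the order used throughout, the sum was 801, 1073, 1265 and 566 CPM in wild-type sham and 667, 595, 636 and 687 CPM in Apoe-/- sham. It was 949, 1138 and 808 CPM in wild-type microbead and 674, 1277, 938 and 636 CPM in Apoe-/- microbead libraries. The means were 926 ± 307 (SD, n = 4), 646 ± 40.3 (SD, n = 4), 965 ± 166 (SD, n = 3) and 882 ± 296 CPM (SD, n = 4) in that order. Wild-type sham library 4 had the lowest sum of the 15 libraries, so the sham groups overlapped. That library was lowest in its group for 25 of the 40 members (62.5%, against 30.5% of all tested genes) and library 3 was highest for 21 (52.5%, against 25%). Among Apoe-/- microbead libraries, library 2 was highest for 21 of 40 (52.5%, against 23.9% of all tested genes). In bulk RNA a lower level in every cell and fewer cells that express a gene cannot be told apart.

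**Figure D2:**
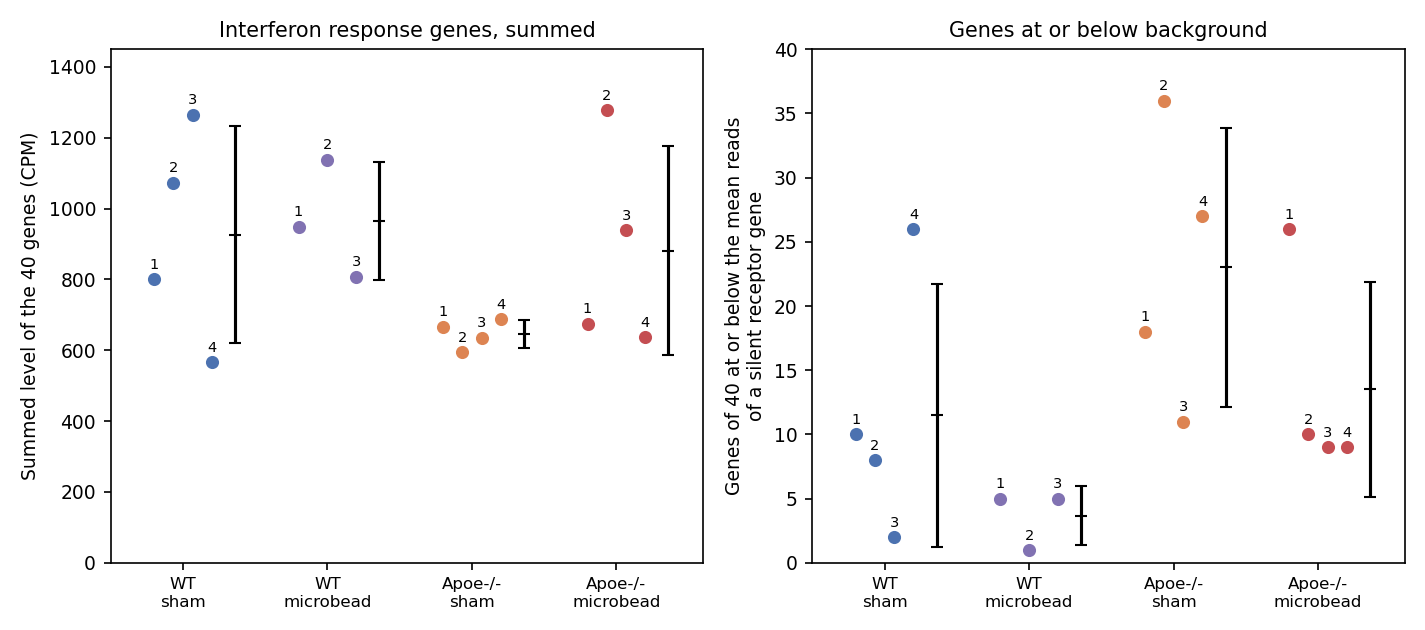
Left, summed CPM of the 40 genes in each library (points, numbered by library) with mean and SD per group. Right, how many of the 40 genes had no more reads in that library than the mean silent receptor gene. Apoe-/- sham libraries sit between 595 and 687 CPM, and 36 of 40 genes were at or below background in Apoe-/- sham library 2.

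The share of reads on silent receptor genes had a higher median in Apoe-/- than in wild-type sham libraries (1.93 against 1.17%). In the microbead groups the medians were nearly equal, both 1.05%. In the sham groups the share was 0.861 to 1.73% for wild type and 0.965 to 2.44% for Apoe-/-, and in the microbead groups 0.668 to 1.30% and 0.835 to 2.14%. The ranges of the genotypes overlapped in both. From 11 to 36 members were at or below the receptor mean in an Apoe-/- sham library and from 2 to 26 in a wild-type sham library. With that share as a covariate, an alternative added after the data were seen, the median log2 fold change of the tested members in the sham comparison was -0.46 in place of -0.68.

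**Figure D3:**
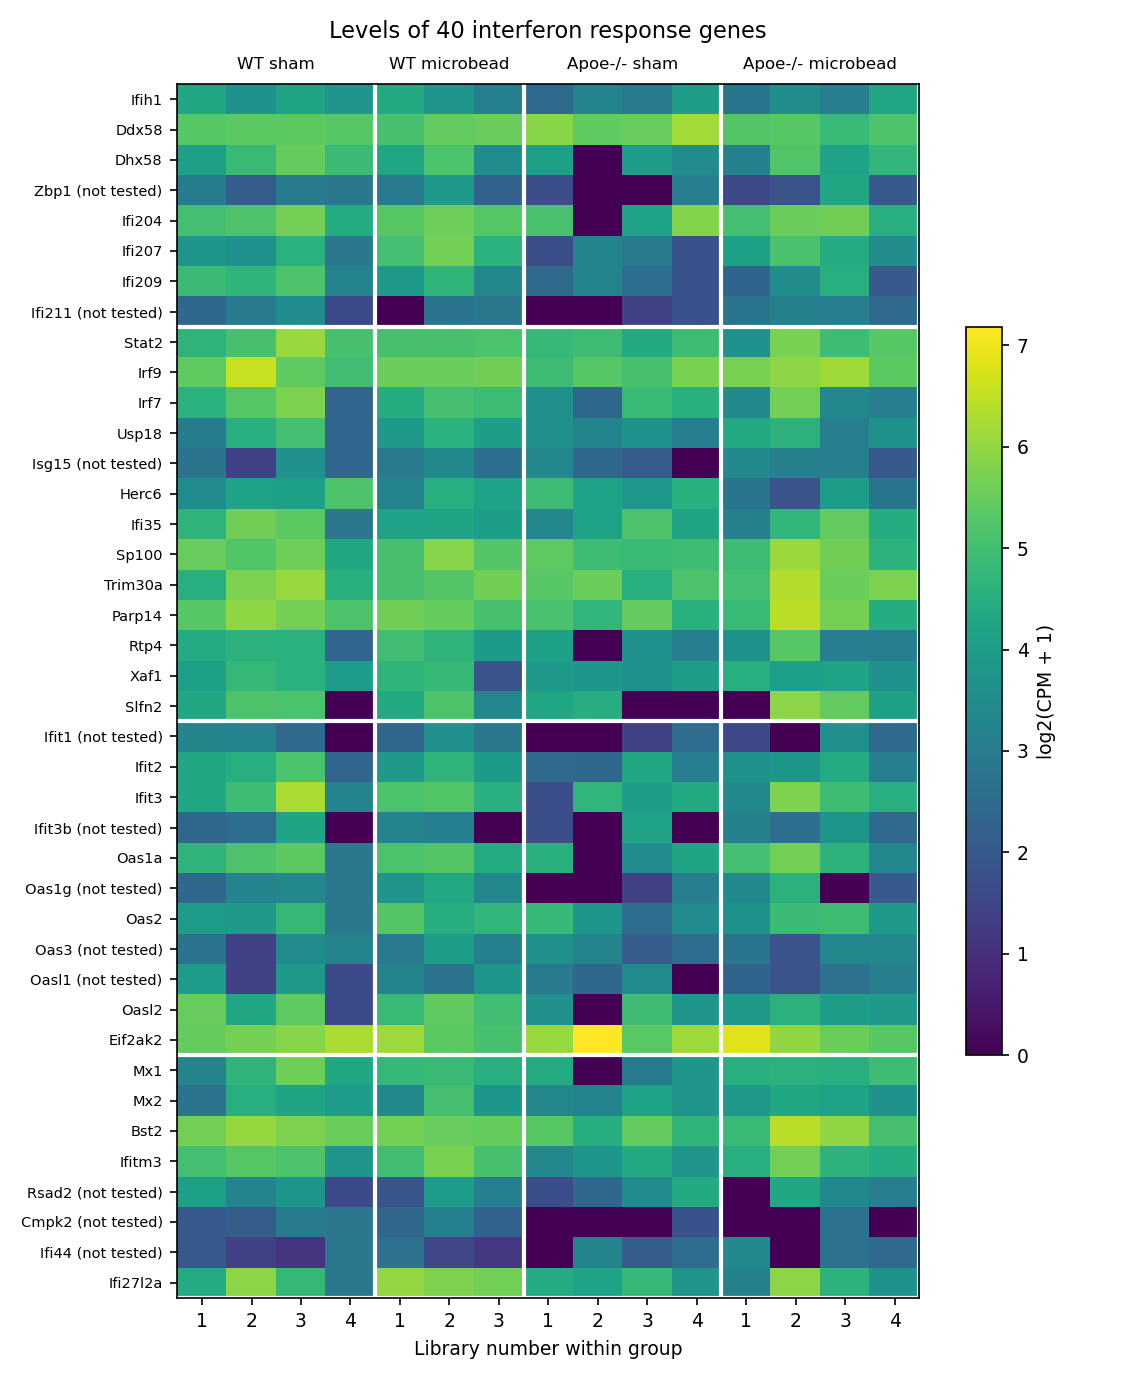
Level of each of the 40 genes in each of the 15 libraries, as log2(CPM + 1), grouped by role from top to bottom (sensors, transcription factors and regulators, RNA-binding and RNA-degrading effectors, membrane and GTPase effectors). Wild-type sham library 4 and Apoe-/- sham library 2 are dark in many rows, and Apoe-/- microbead library 2 is bright in many.

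The first comparison was Apoe-/- against wild type in sham retinas, without raised pressure. A plate letter in the names of the deposited tables follows the genotype, so in each comparison of the genotypes genotype and plate cannot be told apart. Most interferon response genes read lower in Apoe-/- microglia, but no single gene passed the test. Of the 29 tested members 26 were lower and 3 higher, with a median log2 fold change of -0.68, whereas 51% of all tested genes were lower and their median was -0.01. By edgeR's quasi-likelihood test with Benjamini-Hochberg adjustment over all genes, 0 members were called, against 0.0153% of all tested genes. At an unadjusted p under 0.05, 5 members were lower (Ifi209, Ifitm3, Ifi207, Dhx58 and Mx1), where 2.99% of all tested genes were, and none was higher (5.7% of all tested genes). DESeq2 and limma voom also called 0, with 5 and 1 members lower at an unadjusted p under 0.05. Over all libraries Ifi209 had 141 reads, Ifi207 179, Dhx58 201 and Mx1 206, all under 3 times the receptor background, and Ifitm3 266, above it. With only genes above that background tested, 13 of 15 members were lower by edgeR, with a median of -0.508. Of these 15, 1 was lower and 1 higher at an unadjusted p under 0.05 (10.5% of all 3183 genes in either direction). Libraries did not overlap for Bst2 and Dhx58, both lower (2.39% of all tested genes), nor for Ddx58, which was higher (1.2%). Other gene sets also read lower in the Apoe-/- sham libraries. Of the tested microglial markers 11 of 12 were lower with a median log2 fold change of -0.33, of the rod markers 16 of 17 with a median of -1.08, and of the dissociation genes, which tissue handling induces, 12 of 12 with a median of -0.60. With the mean rod marker level as a covariate the members' median was -0.88. By edgeR 10 were then lower at an unadjusted p under 0.05 (10.8% of all tested genes in either direction). With the dissociation level it was -0.72, with 7 lower (8.3%). The part of these sets in the members' values was not tested beyond these fits.

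Among the sensors, Ifi209 had the largest difference. It is a member of the PYHIN family, whose DNA-sensing proteins lie together on chromosome 1 (Ifi209 at 173630917 to 173647928, plus strand, mm10). It read 29.1, 25.1, 35.5 and 8.23 CPM in the wild-type sham libraries and 4.55, 8.50, 4.99 and 2.49 CPM in the Apoe-/- sham libraries. The groups touched, since wild-type library 4 read below Apoe-/- library 2. The Apoe-/- values rest on 1 to 3 reads each. The log2 fold change was -2.33 (SE 0.66, 95% interval -3.71 to -0.96), with an unadjusted p of 0.0021 and an adjusted p of 0.556 by edgeR. Without a filter on low counts, where edgeR called 41 of 28112 genes, the adjusted p of Ifi209 was 0.0374 and its log2 fold change -2.49. Over all alternatives its adjusted p ran from that value to 0.999, the latter with the silent receptor share as a covariate.

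Its neighbour Ifi207 (chromosome 1, 173723427 to 173741747, minus strand) read 13.1, 11.7, 22.9 and 6.17 CPM in wild-type and 2.28, 8.50, 6.66 and 2.49 CPM in Apoe-/- sham libraries, and again wild-type library 4 lay within the Apoe-/- range. The log2 fold change of Ifi207 was -1.52 (SE 0.59, adjusted p = 0.556). Ifi204, the best-known DNA sensor of this family in mouse, read 32.0, 35.1, 50.4 and 20.6 CPM against 34.1, 0, 16.6 and 57.3 CPM, so that the highest and the lowest value were both in Apoe-/- libraries. Its log2 fold change was -0.31 (SE 0.49, adjusted p = 0.908). These genes and Ifi211 are close copies of each other, and how reads were divided among them is uncertain.

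The RNA sensors lay in both directions. Dhx58 (LGP2), which tunes the other RNA sensors, read 16.0, 28.4, 43.5 and 28.8 CPM in wild-type and 15.9, 0, 14.98 and 9.96 CPM in Apoe-/- sham libraries. The ranges were separate by a narrow margin, 16.0 against 15.9 CPM, and the fit gave a log2 fold change for Dhx58 of -1.35 (SE 0.55, adjusted p = 0.556). Ifih1 (MDA5), the sensor of long double-stranded RNA, read 18.9, 11.7, 17.2 and 12.3 CPM against 4.55, 8.50, 6.66 and 14.9 CPM, and Apoe-/- library 4 was inside the wild-type range (log2 fold change -0.83, SE 0.53, adjusted p = 0.665). Ddx58 (RIG-I), which senses RNA with a 5′ triphosphate, lay the other way. It read 39.2, 40.1, 40.1 and 39.1 CPM in wild-type and 59.2, 42.5, 44.9 and 72.2 CPM in Apoe-/- sham libraries, with every Apoe-/- library above every wild-type library. The log2 fold change of Ddx58 was 0.47 (SE 0.25, adjusted p = 0.610), and its interval, -0.05 to 1.00, ends at about a doubling.

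Of the 12 tested genes that carry and control the signal 11 were lower, with a median of -0.59. Stat2, which carries the signal of the receptor, read 24.7, 33.4, 66.5 and 32.9 CPM in wild-type and 27.3, 29.7, 19.97 and 29.9 CPM in Apoe-/- sham libraries (log2 fold change -0.61, SE 0.39, adjusted p = 0.669). Irf9, its DNA-binding partner, read 42.1, 95.2, 42.4 and 30.9 CPM against 29.6, 38.2, 33.3 and 52.3 CPM (log2 fold change -0.47, SE 0.33, adjusted p = 0.713). In both genes 1 wild-type library stood far above the rest, library 3 for Stat2 and library 2 for Irf9. Irf7, the factor that amplifies interferon production, read 23.3, 38.4, 53.9 and 4.11 CPM against 11.4, 4.25, 28.3 and 22.4 CPM (log2 fold change -0.77, SE 0.62, adjusted p = 0.744). The wild-type libraries alone spanned the whole Apoe-/- range of Irf7.

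Usp18, which strips Isg15 from proteins and quiets the receptor, read 7.27, 21.7, 32.1 and 4.11 CPM in wild-type and 11.4, 8.50, 11.7 and 7.47 CPM in Apoe-/- sham libraries, and the log2 fold change for Usp18 was -0.75 (SE 0.56, adjusted p = 0.727). The spread among wild-type libraries was larger than the difference. Herc6, the ligase that attaches Isg15 in mouse, read 10.2, 16.7, 16.0 and 35.0 CPM against 29.6, 17.0, 13.3 and 22.4 CPM (log2 fold change 0.12, SE 0.48, adjusted p = 0.970). Here wild-type library 4, the lowest for most members, was the highest. Ifi35 read 24.7, 48.5, 40.1 and 6.17 CPM against 9.11, 17.0, 35.0 and 17.4 CPM (log2 fold change -0.57, SE 0.52, adjusted p = 0.786). Rtp4 read 20.3, 23.4, 22.9 and 4.11 CPM against 15.9, 0, 11.7 and 7.47 CPM (log2 fold change -0.88, SE 0.64, adjusted p = 0.713), with all of the Apoe-/- libraries below the upper 3 wild-type ones. Isg15 itself, the ubiquitin-like tag, had 17 reads over the wild-type sham libraries and 7 over the Apoe-/- sham libraries and was not tested.

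Of the effectors that act on RNA, Ifit3, which works with its relatives to hold foreign RNA, read 18.9, 30.1, 76.8 and 8.23 CPM in wild-type and 2.28, 25.5, 14.98 and 19.9 CPM in Apoe-/- sham libraries (log2 fold change -1.24, SE 0.63, adjusted p = 0.587). The highest 2 values were wild-type and the lowest was Apoe-/- library 1, with overlap between. Ifit3 has a close copy, Ifit3b, and the division of reads between them is uncertain. Oasl2, a relative of the oligoadenylate synthetases, read 45.1, 18.4, 41.3 and 2.06 CPM against 11.4, 0, 30.0 and 12.5 CPM (log2 fold change -0.84, SE 0.59, adjusted p = 0.707). Oas2, which makes the oligoadenylates that activate RNase L, read 14.5, 13.4, 26.4 and 6.17 CPM against 27.3, 12.7, 4.99 and 9.96 CPM (log2 fold change -0.22, SE 0.53, adjusted p = 0.943). Oas2 thus had its highest value in an Apoe-/- library. Eif2ak2 (PKR), the kinase that stops translation on double-stranded RNA, read 43.6, 50.1, 57.3 and 76.1 CPM against 66.0, 144, 39.95 and 69.7 CPM (log2 fold change 0.44, SE 0.39, adjusted p = 0.780). Its 144 CPM is from Apoe-/- sham library 2, where 36 of the 40 members were at or below the receptor background.

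The membrane and GTPase effectors were all lower among those tested, 5 of 5. Bst2 (tetherin), which holds budding virus at the cell surface, read 49.4, 65.2, 53.9 and 45.2 CPM in wild-type and 38.7, 21.2, 43.3 and 24.9 CPM in Apoe-/- sham libraries. Every Apoe-/- library lay below every wild-type library. The log2 fold change was -0.68 (SE 0.34, 95% interval -1.39 to 0.02, adjusted p = 0.581). Ifitm3, which blocks fusion of virus with endosomes, read 32.0, 38.4, 35.5 and 12.3 CPM against 9.11, 12.7, 19.97 and 12.5 CPM, where only wild-type library 4 fell in the Apoe-/- range (log2 fold change -1.09, SE 0.42, adjusted p = 0.556). Mx1, a gene of the Mx family of GTPases, read 8.72, 25.1, 47.0 and 18.5 CPM against 20.5, 0, 6.66 and 12.5 CPM (log2 fold change -1.24, SE 0.53, adjusted p = 0.556). Ifi27l2a, a small membrane protein, read 20.3, 60.2, 26.4 and 6.17 CPM against 20.5, 17.0, 26.6 and 12.5 CPM, and its log2 fold change of -0.53 (SE 0.57, adjusted p = 0.837) rests on wild-type library 2, without which it was 0.09.

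Single libraries carried many of these sham values. Without wild-type library 3 the log2 fold change of Ifit3 was -0.396, of Mx1 -0.693, of Irf7 -0.318, of Stat2 -0.206, of Usp18 -0.164 and of Oas2 0.203. Without wild-type library 2 that of Irf9 was -0.0244 and that of Ifi35 -0.273, and without wild-type library 1 that of Oasl2 was -0.516. Without Apoe-/- sham library 2 that of Ifi204 was -0.0059 and that of Eif2ak2 0.0402. The values of Ifi209 (-2.59 to -2.09), Dhx58 (-1.56 to -1.07), Ifitm3 (-1.41 to -0.931), Ifi207 (-1.84 to -1.11), Bst2 (-0.879 to -0.563) and Rtp4 (-1.23 to -0.621) moved by less than 1.5 times when any 1 library was left out.

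**Figure D4:**
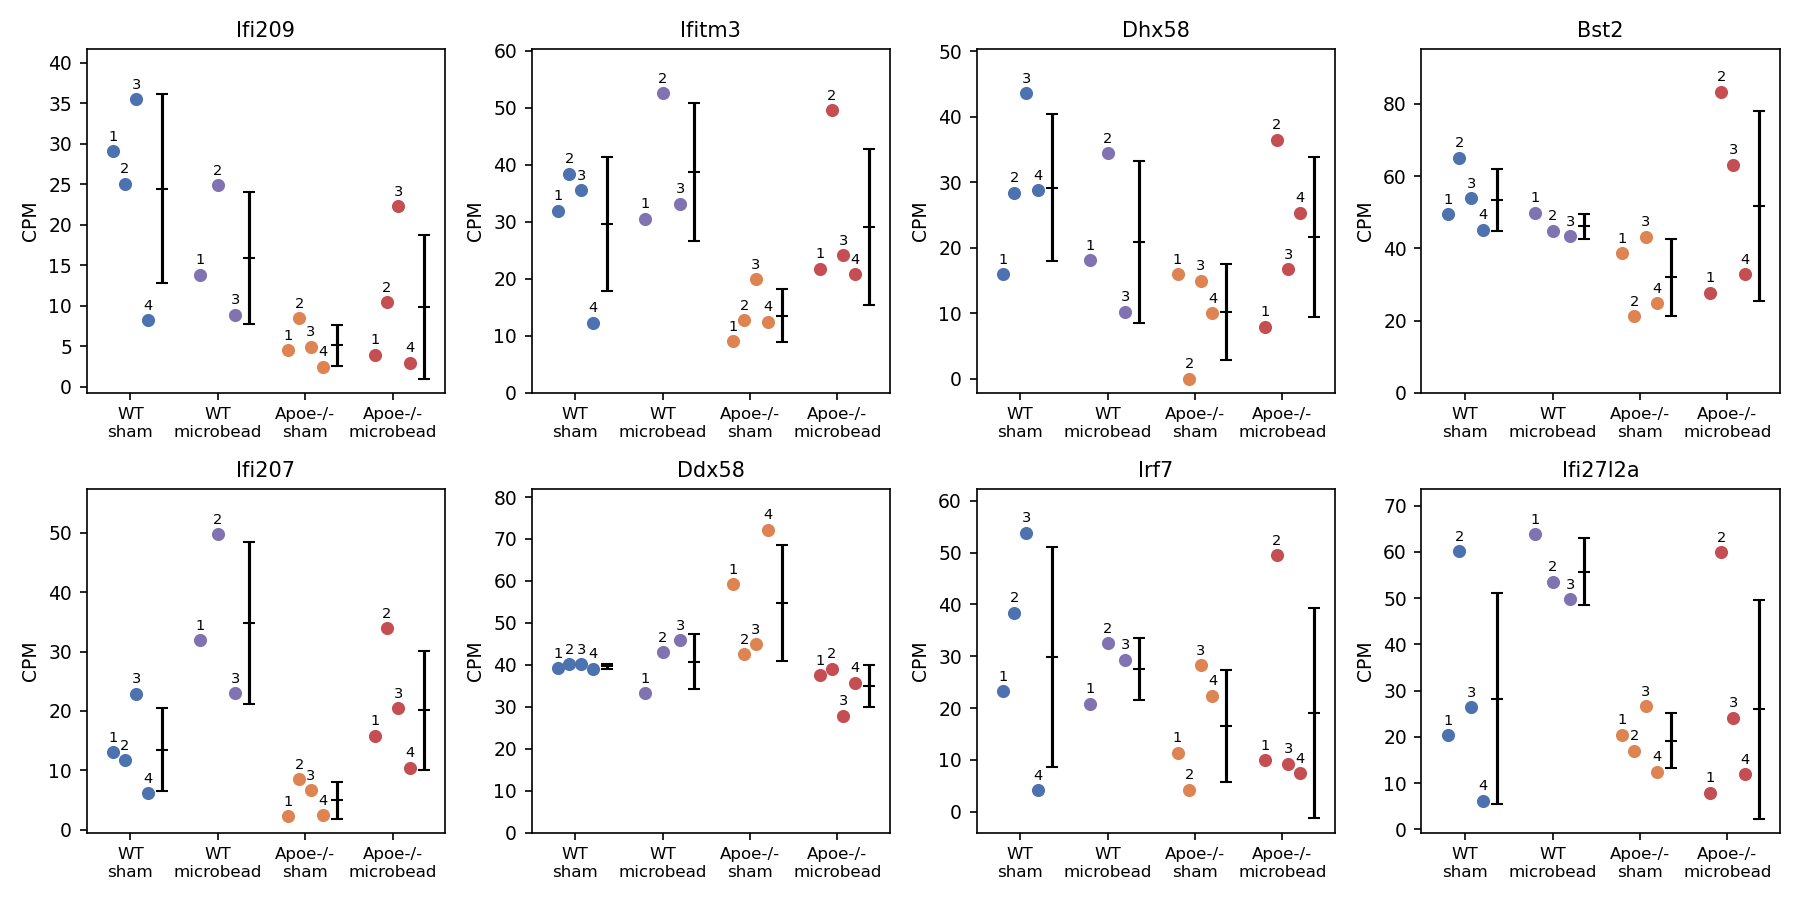
CPM of 8 of the genes in each library (points, numbered by library) with mean and SD per group. Bst2 and Dhx58 are separate between the sham groups with Apoe-/- lower, Ddx58 with Apoe-/- higher, and Ifi207 is separate between sham and microbead in both genotypes.

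Microbead against sham in wild-type retinas asked whether raised pressure moves these genes in normal microglia. The response genes lay on both sides of their sham level. Of the 29 tested members 12 were higher and 17 lower (49.2% of all tested genes were higher), with a median log2 fold change of -0.08 (all tested genes -0.01). No member was called by edgeR (0 of 29, against 0.199% of all tested genes), nor by DESeq2 or limma voom, and 1 was higher at an unadjusted p under 0.05 by edgeR and by DESeq2 and 2 by limma voom (4.26% of all tested genes by edgeR), and 0 were lower (3.63%). With the deposited TPM the median was 0.76 and 25 of 29 were higher, beside a median of 0.59 over all genes on that scale, and limma called 1 member (Ifi207, adjusted p = 0.0424) among 87 of 6470 genes. For 7 members (Bst2, Ddx58, Irf9, Mx1, Parp14, Sp100 and Trim30a) the 95% interval left out a 2-fold difference either way. That held for 2 members between the genotypes in sham, 6 between them after microbeads and 0 for microbeads in Apoe-/-. How many of all tested genes did so was not counted, so these counts cannot be read as particular to the members.

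Ifi207 was the member with the smallest p. In wild-type microbead libraries it read 31.9, 49.7 and 23.0 CPM, all above the 6.17 to 22.9 CPM of wild-type sham, though by a narrow margin (libraries did not overlap in this direction for 6.35% of all tested genes). The log2 fold change of Ifi207 was 1.31 (SE 0.44, unadjusted p = 0.0081, adjusted p = 0.454). Ifi27l2a read 63.8, 53.6 and 49.8 CPM, within the 6.17 to 60.2 CPM of sham in 2 of 3 libraries (log2 fold change 0.96, SE 0.52, adjusted p = 0.695). Oas2 read 37.5, 21.0 and 25.5 CPM (log2 fold change 0.81, SE 0.48, adjusted p = 0.716). On the lower side, Ifi35 read 16.7, 17.2 and 15.3 CPM, below 3 of the 4 sham libraries (log2 fold change -0.89, SE 0.53, adjusted p = 0.716), and Ifi209 read 13.9, 24.9 and 8.93 CPM (log2 fold change -0.62, SE 0.54, adjusted p = 0.821). Ifitm3 read 30.5, 52.6 and 33.2 CPM (log2 fold change 0.38, SE 0.37, adjusted p = 0.849). Without wild-type microbead library 2 that of Ifitm3 was 0.0763 and that of Ifi209 -1.13.

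Of the remaining named members, Dhx58 read 18.0, 34.4 and 10.2 CPM with microbeads, below its sham libraries in 1 of 3. Bst2 was at 46.1 ± 3.43 CPM with microbeads (SD, n = 3) and 53.4 ± 8.58 with sham (SD, n = 4), Irf9 at 46.7 ± 1.53 and 52.7 ± 28.9, Stat2 at 33.7 ± 0.626 and 39.4 ± 18.5, and Mx1 at 25.3 ± 3.17 and 24.8 ± 16.2. The microbead libraries were closer to each other than the sham libraries for these 4 genes. Irf7 was at 27.6 ± 6.05 and 29.9 ± 21.3 CPM, Usp18 at 17.4 ± 4.88 and 16.3 ± 13.02, and Ifit3 at 30.9 ± 8.02 and 33.5 ± 30.2. For Ddx58, at 40.8 ± 6.62 and 39.6 ± 0.550 CPM, the sham libraries were the closer ones, almost equal to each other.

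Other features differed between the wild-type groups and their part in these values was not tested beyond the covariate fits given below. Rod photoreceptor markers summed to 573 to 2661 CPM in sham and 103 to 666 CPM in microbead libraries, and 7 of the 18 were above 3 times background over all libraries. Genes induced by tissue dissociation summed to 261 to 4155 CPM in sham and 1471 to 8723 CPM with microbeads, and 12 of 15 were above that background. The satellite share was 55.9 to 66.6% in sham and 40.8 to 53.5% with microbeads. The members' median log2 fold change was -0.0795 with the rod level as a covariate and 0.00259 with the dissociation level.

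In Apoe-/- retinas the microbead groups read mostly above sham. Of the 29 tested members 25 were higher and 4 lower (50.7% of all tested genes were higher), with a median log2 fold change of 0.47 (all tested genes 0.01). Without Apoe-/- microbead library 2 the median was 0.32. With the silent receptor share as a covariate it was 0.31, with 23 of 29 higher and 1 higher at an unadjusted p under 0.05. No member was called by edgeR (0 of 29, against 0% of all tested genes), DESeq2 or limma voom. At an unadjusted p under 0.05 edgeR had 3 members higher (3.31% of all tested genes) and 2 lower (3.65%), DESeq2 also 3 and 2, and limma voom 0 and 1. The libraries did not overlap for 3 members that were higher (1.55% of all tested genes) and 1 that was lower (0.951%). This comparison uses the same Apoe-/- sham libraries as the genotype comparison, so low values there enter both.

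Ifi207 again had the smallest p among members. It read 15.8, 33.9, 20.4 and 10.4 CPM in Apoe-/- microbead libraries, all above Apoe-/- sham with its 2.28 to 8.50 CPM (log2 fold change 1.98, SE 0.59, unadjusted p = 0.0030, adjusted p = 0.697). The sham values rest on 1 to 4 reads. Ifitm3 read 21.8, 49.5, 24.2 and 20.9 CPM where sham had 9.11 to 19.97 CPM, so the groups were separate by less than 1 CPM. Its log2 fold change was 1.002 (SE 0.43, adjusted p = 0.697). Mx1 read 21.8, 23.5, 22.3 and 29.8 CPM where sham had 0 to 20.5 CPM, again just separate. Its log2 fold change was 1.19 (SE 0.55, adjusted p = 0.697). Bst2 read 27.7, 83.4, 63.2 and 32.8 CPM, with libraries 1 and 4 inside the sham range (log2 fold change 0.61, SE 0.34, adjusted p = 0.713). Without Apoe-/- microbead library 2 the log2 fold change of Bst2 was 0.301 and that of Ifitm3 0.654.

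Ddx58 and Herc6 lay the other way. Ddx58 read 37.6, 39.1, 27.9 and 35.8 CPM in Apoe-/- microbead libraries, all below the 42.5 to 72.2 CPM of Apoe-/- sham, with a log2 change of -0.65 (SE 0.26, adjusted p = 0.697). Of these microbead values 3 of 4 also lay below the wild-type sham libraries. Herc6 read 5.93, 2.61, 14.9 and 5.96 CPM where sham had 13.3 to 29.6 CPM, and only library 3 was inside that range (log2 fold change -1.42, SE 0.55, adjusted p = 0.697). Eif2ak2, at 113, 62.6, 46.5 and 38.8 CPM, stayed within its sham range of 39.95 to 144 CPM but for the lowest library.

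For several of the other named members Apoe-/- microbead library 2 stood above the rest. Irf7 read 9.89, 49.5, 9.29 and 7.45 CPM, Rtp4 11.9, 39.1, 7.43 and 7.45 CPM, and Ifit3 9.89, 54.7, 29.7 and 22.4 CPM. Ifi27l2a read 7.91, 60.0, 24.2 and 11.9 CPM and Oasl2 13.9, 23.5, 14.9 and 13.4 CPM. In each of these 5 genes library 2 was the highest. For Irf7 the other 3 libraries were below the Apoe-/- sham mean of 16.6 CPM. Stat2 read 11.9, 52.1, 29.7 and 38.8 CPM, Irf9 51.4, 60.0, 70.6 and 40.2 CPM, and Usp18 19.8, 23.5, 7.43 and 11.9 CPM. Oas2 read 11.9, 28.7, 29.7 and 13.4 CPM, Ifi35 7.91, 26.1, 42.7 and 20.9 CPM, and Dhx58 7.91, 36.5, 16.7 and 25.3 CPM. Library 2 had 70.7% satellite reads, 10 members at or below the receptor background and 490 reads on the 40 members in all. Rod markers summed to 151 to 1703 CPM in Apoe-/- sham and 195 to 2617 CPM with microbeads, and dissociation genes to 228 to 2438 and 169 to 9403 CPM. Of the tested rod markers 16 of 17 were higher with microbeads (median log2 fold change 0.68), and of the dissociation genes 12 of 12 (median 1.30). Of the microglial markers 8 of 12 were higher (median 0.06). The members' median was 0.616 with the rod level as a covariate and 0.50 with the dissociation level. The part of these sets in the members' values was not tested beyond these fits.

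**Figure D5:**
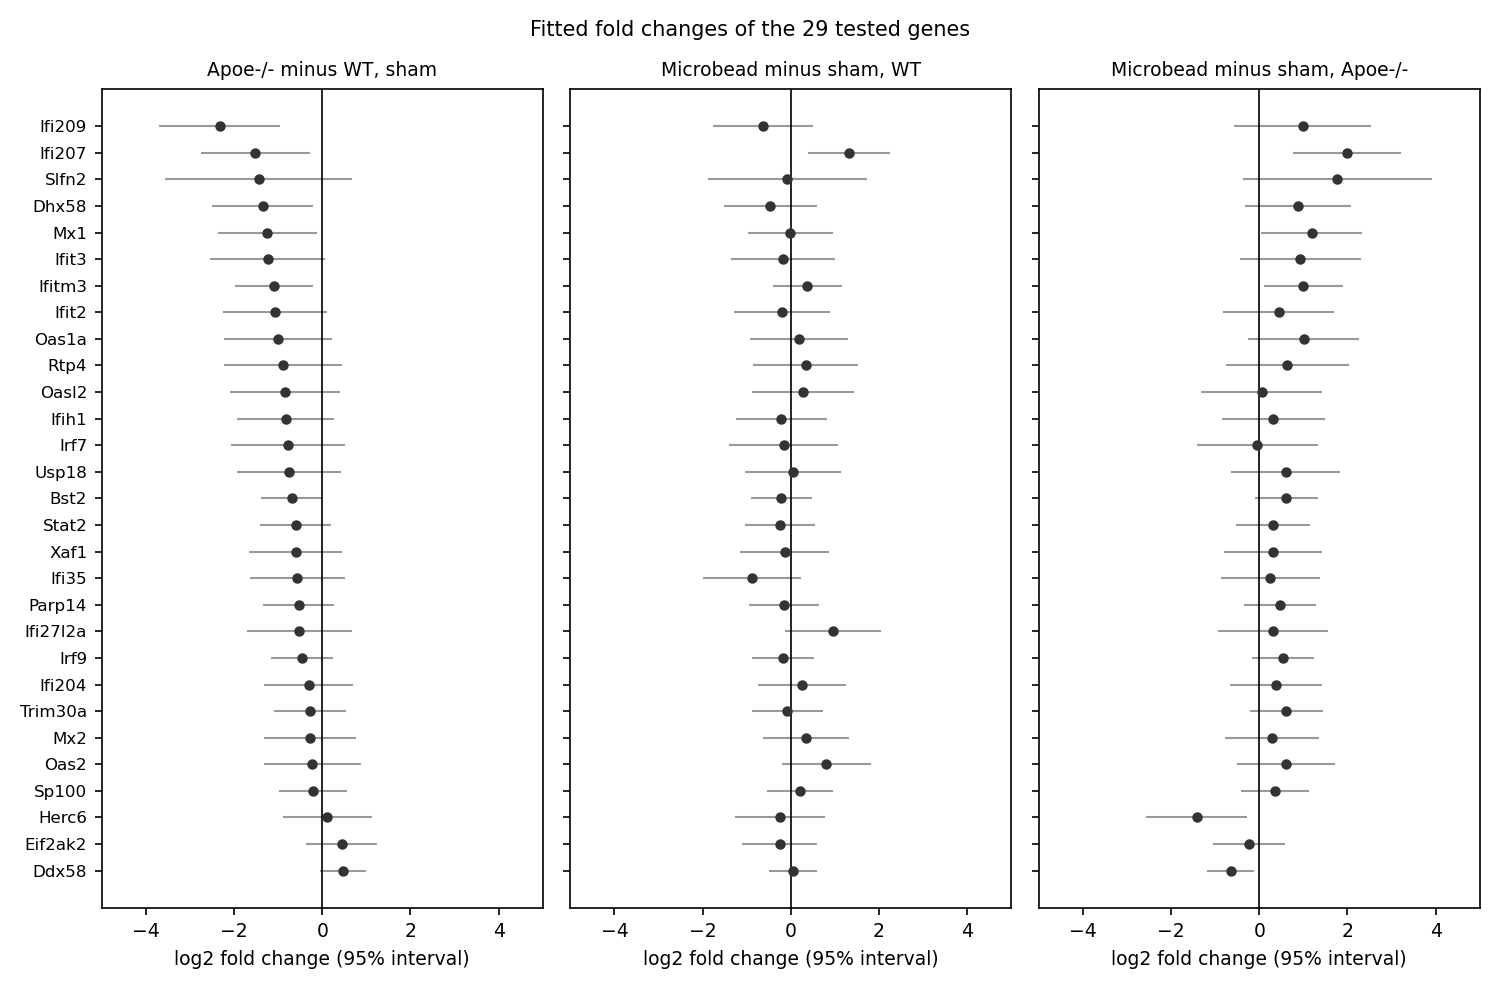
Log2 fold change with 95% interval for the 29 tested genes in 3 comparisons, ordered by the sham genotype comparison. In the left panel 26 of 29 points lie below 0, in the middle panel 12 lie above 0, and in the right panel 25 lie above 0. The left and right panels share the Apoe-/- sham libraries and the left and middle panels the wild-type sham libraries.

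Whether the genotypes responded differently to microbeads was tested as the difference between the 2 responses. It was positive for 23 of 29 tested members (50.2% of all tested genes), with a median of 0.56 on the log2 scale (all tested genes below 0.01). Rod markers were positive in 17 of 17 tested (median 2.585) and microglial markers in 10 of 12 (median 0.26). Dissociation genes were positive in 4 of 12 (median -0.16). As a covariate the rod level gave a members' median of 0.93, with 25 positive and 4 negative. By edgeR 2 were then positive and 1 negative at an unadjusted p under 0.05 (3.97% of all tested genes in either direction). The dissociation level gave 0.535, with 21 and 8. The part of these sets in the members' values was not tested beyond these fits. No member was called (0%), and the adjusted p was 1 for each. None was at an unadjusted p under 0.05 by the main edgeR fit, DESeq2 or limma voom (1.92% of all tested genes were by edgeR with a positive and 1.46% with a negative difference). With the deposited TPM the split turned, to 9 positive and 20 negative, with a median of -0.17 (all genes -0.43). The members ranked first by edgeR were Ddx58 (difference -0.69, SE 0.37), Dhx58 (1.34, SE 0.77), Ifi209 (1.61, SE 0.92) and Bst2 (0.82, SE 0.48). For none of the 29 members did the interval leave out a 2-fold difference either way, so these libraries neither show nor bound an unequal response of that size.

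Between the genotypes after microbeads, the split of the members rested on 1 library. Of 29 tested, 22 were lower in Apoe-/- and 7 higher (49.3% of all tested genes were lower), with a median log2 fold change of -0.18 (all tested genes 0.01). Without wild-type microbead library 2 the split was 15 lower and 14 higher and the median -0.00802, and with the silent receptor share as a covariate 16 and 13 and -0.0832. Rod markers were higher in Apoe-/- in 17 of 17 tested (median 1.82) and dissociation genes lower in 11 of 12 (median -0.67). The members' median was -0.144 with the rod level as a covariate and -0.314 with the dissociation level. The part of these sets was not tested beyond these fits. No member was called by edgeR (0 of 29, against 0.046% of all tested genes), DESeq2 or limma voom, and 1, 0 and 2 were lower at an unadjusted p under 0.05 (2.98% of all tested genes by edgeR). With the deposited TPM 29 of 29 were lower with a median of -1, beside a median of -0.74 over all genes, and 2 members were called by limma (Ifi27l2a, adjusted p = 0.0413, and Ifi207, adjusted p = 0.0468) among 195 of 6470 genes. Ifi27l2a read 49.8 to 63.8 CPM in wild-type microbead and 7.91 to 59.95 CPM in Apoe-/- microbead libraries (log2 fold change -1.18, SE 0.55, adjusted p = 0.664). Herc6 read 8.32, 21.99 and 16.6 CPM in wild-type microbead libraries (log2 fold change -1.06, SE 0.55, adjusted p = 0.702), and the log2 fold change for Ifi207 was -0.85 (SE 0.45, adjusted p = 0.702). Oasl2 read 27.8, 42.1 and 30.6 CPM in wild-type microbead libraries, all above Apoe-/- microbead with 13.4 to 23.5 CPM, and its log2 fold change was -1.06 (SE 0.60, adjusted p = 0.725), in a comparison where 3.68% of all tested genes were separate in this direction.

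The 11 members that were not tested had 31 to 84 reads over all 15 libraries. They were Ifit1, Ifit3b, Isg15, Oasl1, Oas1g, Oas3, Rsad2, Ifi44, Ifi211, Zbp1 and Cmpk2. Isg15, among the most strongly induced genes in a full interferon response, had 57 reads, from 0 to 10 in a library. Sham libraries held 5.76 ± 4.16 CPM of Isg15 in wild type (SD, n = 4) and 4.17 ± 3.76 CPM in Apoe-/- (SD, n = 4). Microbead libraries held 7.20 ± 2.24 CPM (SD, n = 3) and 7.03 ± 2.91 CPM (SD, n = 4), and the ranges of all groups overlapped. Cmpk2, a nucleotide kinase next to Rsad2, had 13 reads in wild-type sham and 1 in Apoe-/- sham libraries. Set beside each other per length, as summed TPM in wild-type sham, the highest members were Ifi27l2a at 24.2 ± 18.4 TPM, Bst2 at 21.98 ± 5.79, Ddx58 at 21.5 ± 6.28 and Ifitm3 at 14.99 ± 7.22 TPM (SD, n = 4). The first 3 did not differ beyond their spread. Oas3 was the lowest at 0.384 ± 0.261 TPM.

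The genes upstream of the response were read from lists of ligands, receptors and signal carriers, sensors and adaptors, and negative regulators. The 21 interferon genes, type I and others, had 23 reads in all, 8 of them were at 0 and none was tested. Ifnb1, the beta interferon gene, had 6 reads, 4 of them in wild-type microbead library 2. The receptor chains were present in every group. Ifnar1 was at 64.3 ± 8.76 CPM in wild-type sham (SD, n = 4) and 66.2 ± 15.9 CPM in Apoe-/- sham libraries (SD, n = 4), and Ifnar2 at 90.6 ± 11.9 and 86.1 ± 28.7 CPM. Neither differed between the sham groups beyond the spread (log2 fold changes 0.06, SE 0.25, and -0.05, SE 0.27).

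Of the 12 tested receptor and signal genes, 0 were called by edgeR in any comparison, and 9 were lower in Apoe-/- sham. Irf1, a factor that responds to both interferon types, had 5, 3, 14 and 8 reads in Apoe-/- sham and 19, 22, 12 and 48 with microbeads (log2 fold change 1.43, SE 0.45, adjusted p = 0.697). The Irf1 levels overlapped in 1 library of each group. In the sham comparison Irf1 had a log2 fold change of -0.77 (SE 0.46) and Irf5, a factor of myeloid cells, -0.43 (SE 0.25). In wild type with microbeads the smallest p-values belonged to Ifngr2, a chain of the interferon gamma receptor (0.60, SE 0.26), Ifnar2 (0.37, SE 0.28) and the receptor kinase Tyk2 (0.37, SE 0.33).

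Among 17 tested sensors and adaptors Tmem173 (STING), the adaptor of DNA sensing, had the smallest p in the sham comparison. It was at 150 ± 7.74 CPM in wild-type (SD, n = 4) and 97.7 ± 13.6 CPM in Apoe-/- sham libraries (SD, n = 4) without overlap (log2 fold change -0.60, SE 0.22, adjusted p = 0.556). Tlr7, the endosomal sensor of single-stranded RNA, had log2 fold changes of -0.52 (SE 0.28) between the sham groups, -0.56 (SE 0.29) with microbeads in wild type and 0.55 (SE 0.29) with microbeads in Apoe-/-. Irak4, a kinase downstream of such receptors, read higher in Apoe-/- sham (0.65, SE 0.44), Trex1, a DNA exonuclease, higher with microbeads in wild type (0.37, SE 0.31), and the adaptor Ticam1 lower with microbeads in Apoe-/- (-0.70, SE 0.42). Tlr3, the endosomal sensor of double-stranded RNA, was at 9.29 ± 3.93 CPM in wild-type microbead (SD, n = 3) and 23.4 ± 7.61 CPM in Apoe-/- microbead libraries (SD, n = 4; log2 fold change 1.29, SE 0.44, adjusted p = 0.574). Of 7 negative regulators tested, Socs3, which blocks receptor kinases, was higher with microbeads in wild type (log2 fold change 1.90, SE 0.68, adjusted p = 0.493) and in Apoe-/- (1.77, SE 0.71, adjusted p = 0.697), neither past the threshold. Socs3 had 51, 491 and 251 reads in wild-type and 52, 9, 30 and 198 in Apoe-/- microbead libraries. The highest library of each group also had its highest sum of dissociation genes (8723 and 9403 CPM), and a link was not tested. Trim24, a repressor, read higher in Apoe-/- sham (0.98, SE 0.46) and lower with microbeads in Apoe-/- (-0.88, SE 0.46), and Pias3, an inhibitor of STAT proteins, likewise (0.61, SE 0.45, and -0.99, SE 0.47).

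A second list held 67 further interferon-induced genes, of which 37 were tested. In the sham comparison 27 of the 37 were lower in Apoe-/- (51% of all tested genes) with a median log2 fold change of -0.21, and 5 were lower at an unadjusted p under 0.05 (2.99% of all tested genes), among them Phf11a (log2 fold change -2.28, SE 0.86; it has close copies), Parp10 (-1.05, SE 0.37) and Tor3a (-0.89, SE 0.35), each with an adjusted p of 0.556 by edgeR. With microbeads in Apoe-/-, 27 of 37 were higher (50.7% of all tested genes) with a median of 0.27. Lgals3bp, a secreted glycoprotein, had the smallest p in wild type with microbeads and was among the 3 smallest in Apoe-/-, with log2 fold changes of 1.30 (SE 0.44, adjusted p = 0.454) in wild type and 1.23 (SE 0.43, adjusted p = 0.697) in Apoe-/-. Next in wild type were Slfn9 (-0.98, SE 0.52) and Cd274, the ligand PD-L1 (1.06, SE 0.56), and in Apoe-/- Rnf213, a large ubiquitin ligase (0.86, SE 0.35). Of the interferon gamma genes, the guanylate-binding protein gene Gbp5 read higher in Apoe-/- sham (1.16, SE 0.50) and lower with microbeads in Apoe-/- (-0.80, SE 0.49). The list itself lay in both directions. In the sham comparison 4 tested genes were higher and 2 lower (-1.22 to 1.16), and with microbeads in Apoe-/- 2 were higher and 4 lower (-0.80 to 1.38). No gene of these lists, nor of 6 tested genes of the interferon gamma response, was called by edgeR in any comparison.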

How the data were processed

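RNA of sorted retinal microglia was sequenced as 15 bulk libraries, with SMART-Seq2 named per the file headers. The authors deposited Salmon transcript tables that hold estimated counts, TPM and effective lengths (in bases, used as other values for offsets only), and a gene TPM table, per the file headers. The submitters' processing notes name mm10, DESeq2 1.30.1, R 4.0.3 and Salmon 1.4.0, and which annotation release was used is not stated there. GENCODE release M21 gave a gene for 116023 of 116945 transcripts, whose estimated counts were added up by gene, then rounded. Unassigned transcripts, 0.217 to 0.354% of reads, were left out.

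The test on these counts was that of edgeR 4.0.16 under R 4.3.3 (quasi-likelihood F-test, TMM, filterByExpr, 1 model of 4 groups), two-sided, adjusted by Benjamini-Hochberg over 6521 genes at a threshold of 0.05. CPM use TMM-scaled sizes. No library pair of a group agreed within sampling noise (chi-square per degree of freedom 2.34 or more). Alternatives were DESeq2 1.42.0, limma 3.58.1 (voom, and log2(TPM + 1) with a pseudocount of 1), other scalings and filters, covariates and leaving out libraries.

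Members and gene lists were chosen with earlier results of these data known. Named members were the 6 of smallest p in the sham genotype and both microbead comparisons, the 4 of smallest p in the others, and 15 genes listed to cover each role (22 in all). Other pathway genes were named by the 3 smallest p in each list and main comparison. Silent receptors were limited to protein-coding genes after the data were seen. With all 1775 such genes, 21 of the 40 members were under 3 times the background. The plate letter in the names of the deposited tables follows the genotype, so both cannot be told apart. Values of some genes that the naming rule picks are not reported here.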

Additional observations from a re-analysis of the deposited data

Results flagged for a closer look

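In groups of 4 libraries, 66 sets of values of the 22 named members were searched for a library far from the other 3, and 5 were found. The cutoff would flag about 1 in 20 sets of independent, normally spread values. These sets are low counts from the same libraries, and most of the flags fall in 1 library, so that rate does not apply to them. In Apoe-/- microbead library 2, Irf7 read 49.52 CPM where the other libraries of the group read 7.451 to 9.89, Rtp4 read 39.1 CPM (others 7.432 to 11.87), Ifitm3 49.52 CPM (others 20.86 to 24.15) and Oasl2 23.46 CPM (others 13.41 to 14.86). In wild-type sham library 4, Rtp4 read 4.113 CPM where the others read 20.34 to 23.39.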

How the results depend on the processing

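No member was called in the sham genotype comparison under the alternatives run except without a filter on low counts. There 1 of 40 was called (Ifi209), beside 41 of 28112 genes. Of the 40 members 37 were lower and the median was -0.803 (all genes 0). The 11 members that this setting adds had 31 to 84 reads over all libraries. On log2(TPM + 1) with limma, 2 members were called between the microbead groups (median -1) and 1 for microbeads in wild type (median 0.756), where 195 and 87 of 6470 genes were, and the median difference between responses was -0.168. On that scale the sham genotype values of Herc6 and Eif2ak2 were -0.362 and -0.231, and with microbeads in wild type Ifi209 was 0.0894 and Ifi35 0.0848. Herc6 was -0.037 without a filter and -0.152 with length offsets, Eif2ak2 -0.0803 with the silent receptor share as a covariate, and Ifitm3 -0.0565 in wild type with rod markers as a covariate. The cause was not tested.

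Leaving out each library in turn gave 0 calls throughout, with median ranges of -0.871 to -0.532 (sham genotype), -0.366 to -0.00802 (microbead genotype), -0.242 to 0.268 (wild-type response), 0.32 to 0.686 (Apoe-/- response) and 0.265 to 0.737 (difference). The sham genotype value of Herc6 ran from -0.128 to 0.516, of Ifi27l2a from -0.825 to 0.0929 and of Oas2 from -0.891 to 0.203. Over every named member in every comparison, 183 of 3041 values changed sign, 45 of them by over 1 SE. The values printed in the text, a selection by smallest p made after these counts were seen, changed sign in 13 of 1181.

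The main model did not pair same-numbered libraries, since no label says that they are paired. Of 21 same-numbered pairs 3 correlated above 0.1 (range -0.166 to 0.223), and other pairs ran from -0.322 to 0.305. In libraries this shallow such correlations cannot tell whether the retinas were paired. With the replicate block 0 members were called and the medians were -0.568, -0.139, -0.0805, 0.505 and 0.631 in the order above. Without wild-type sham library 4 and Apoe-/- sham library 2, left out after the data were seen and both lowest in summed member level in their group, the medians were -0.809, -0.181, -0.229, 0.366 and 0.68. The difference between responses has no fit on fewer groups. Over all genes, counts of calls moved from 3 to 23 (microbead genotype) and from 13 to 36 (wild-type response) with DESeq2, and without a filter to 41, 73, 124, 37 and 45.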
